A study of Mus musculus with 6 samples.

Results

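The genes that decide whether a cell passes from G1 into S phase were followed in the mouse retina at embryonic day 14, when progenitors are leaving the cell cycle to become neurons. The 10 genes were taken by name from the 27998 genes counted: the D cyclins Ccnd1, Ccnd2 and Ccnd3, the E cyclin Ccne1, the kinases Cdk4 and Cdk6, the Cip/Kip inhibitors Cdkn1b and Cdkn1c, and the Ink4 inhibitors Cdkn2c and Cdkn2d. All 10 were detected. Single cells were captured with a 10x Genomics 3′ assay, which counts unique molecular identifiers (UMIs, 1 per captured RNA molecule), in 6 libraries. There were 2 libraries from retinas heterozygous for Bax and null for Atoh7 (Bax het Atoh7 null), 2 from retinas null for Bax whose labels name no Atoh7 allele (Bax null), and 2 from retinas null for both genes (Bax null Atoh7 null). Every library therefore carried a Bax mutation. Bax is a pro-apoptotic gene, and Atoh7 is a transcription factor that takes part in the formation of retinal ganglion cells. Cells labelled retinal ganglion cells were 6.93% to 9.63% of cells in the Atoh7 null libraries and 17.3% and 16.9% in the Bax null libraries. The labels do not say whether the 2 libraries of a group came from separate animals, so p-values measure the spread between these libraries.

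A D cyclin binds Cdk4 or Cdk6, and the complex phosphorylates the retinoblastoma protein, which frees E2F factors to switch on S-phase genes; cyclin E acting with another kinase completes the step. Ink4 inhibitors bind Cdk4 and Cdk6, whereas Cip/Kip inhibitors act on cyclin-kinase complexes more widely. In the embryonic retina Ccnd1 is the main D cyclin of progenitors, and Cdkn1b, Cdkn1c and Cdkn2d are known to take part in cell cycle exit and in keeping neurons out of the cycle.

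The authors' cell types were used: retinal progenitor cells, neurogenic cells (a transitional state between progenitor and neuron), retinal ganglion cells, cones, and a type labelled horizontal cells. In the last, amacrine cell markers summed to between 637 and 817 CPM (a gene's share of all UMIs, on the usual per-library scale), against at most 32.1 CPM elsewhere, so it is called the horizontal label here and only described. The 67050 cells gave 9269 to 14730 cells and 22463515 to 66594431 UMIs per library, with median UMIs per cell of 1634 to 2632 in the 4 Atoh7 null libraries and 5660.5 and 6804 in the 2 Bax null libraries. Depth therefore differed between the Bax null group and both others in the same way as genotype, and the 2 cannot be told apart in any contrast with that group. Atoh7 had 0 UMIs in all 4 libraries labelled Atoh7 null (floors of 3 counts: 0.0898 to 0.134 CPM) and 5.96 and 6.88 CPM in the Bax null libraries. Bax was at 144 and 108 CPM in the heterozygous libraries, at 17.1 and 15.0 CPM where Bax alone is named null, and at 47.7 and 11.0 CPM where both genes are; where the deletion lies relative to the counted 3′ end is not given in the sources used here. The library labelled Bax null Atoh7 null 1, with 47.7 CPM, also shared 2596 cell barcodes with the library labelled Bax null Atoh7 null 2 (17.6% and 22% of their cells, against 1.36% to 2.09% for the other 14 pairs of libraries), and 89.4% of the shared barcodes had the same type in both. Called values that include this library are followed by the value with it left out.

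Levels are given as CPM of a type's summed UMIs in each library, always in the order Bax het Atoh7 null 1 and 2, Bax null 1 and 2, and Bax null Atoh7 null 1 and 2. Ratios between types are means over the 6 libraries of the within-library log2 ratio (CPM plus 1) ± SD. How far such ratios moved under other processing is given near the end. Because the authors made the types from these same cells, and their gene table marks Ccnd1, Ccnd2, Cdk6 and Cdkn1c among 2632 genes used to order cells, differences between types are descriptions with no test. In a droplet assay, fewer expressing cells and less RNA per cell cannot be told apart in such sums.

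Gene positions below are from the GRCm38 annotation, matched by the identifiers in the deposited gene table. Ccnd1 (chr7:144929931-144939925, minus strand), the D cyclin of retinal progenitors, stood at 1428, 1725, 1342, 1365, 1530.0 and 2056 CPM in progenitors (1574 ± 274, SD, n = 6 libraries). It was lower in neurogenic cells in 6 of 6 libraries, at 1039.8, 1183, 959, 1028, 1131 and 1462 CPM, a log2 ratio of −0.47 ± 0.05. In retinal ganglion cells it was at 339.6, 321, 110.4, 81.6, 387 and 378 CPM, with the 2 Bax null libraries far below the others, and the ratio to progenitors ran from −4.05 to −1.98. Cones (222 ± 93.2 CPM, SD, n = 6) and the horizontal label (264 ± 107) did not differ from ganglion cells beyond the spread over libraries. Ccnd1 thus kept most of its level through the neurogenic state and was low in all 3 neuron types.

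Ccnd2 (chr6:127125162-127152193, minus strand) differed in order from Ccnd1. This D cyclin was at 128, 80.6, 113, 119.8, 132 and 134 CPM in progenitors and 32.7, 10.7, 31.1, 37.9, 28.5 and 18.8 CPM in neurogenic cells. In cones it was at 48.8, 40.3, 64.9, 59.5, 63.6 and 48.3 CPM, higher than in neurogenic cells of the same library in 6 of 6, by 1.48-fold to 3.53-fold. Cones were also above ganglion cells in 6 of 6 libraries (log2 ratio 2.14 ± 0.57), and ganglion cells (12.1 ± 4.94 CPM, SD, n = 6) and the horizontal label (13.9 ± 4.79) did not differ beyond their spread. Ccnd3 (chr17:47505051-47599691, plus strand), a widely expressed D cyclin, was at 149 ± 7.49 CPM in progenitors, 67.6 ± 10.8 in neurogenic cells, 82.7 ± 22.1 in cones, 56.2 ± 8.5 in the horizontal label and 31.0 ± 5.92 in ganglion cells (SD, n = 6). Its ganglion cell level was below its cone level in 6 of 6 libraries, while cones and neurogenic cells overlapped (higher in 4 libraries and lower in 2). Ccne1 (chr7:38097984-38107534, minus strand), the cyclin that acts at S-phase entry, was at 24.3 ± 3.06 CPM in progenitors and 24.3 ± 4.83 in neurogenic cells, with neurogenic cells higher in 3 libraries and lower in 3. It was between 1.65 and 7.56 CPM in ganglion cells and 0.772 and 8.67 CPM in cones, where each library had 1 to 12 UMIs.

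The 2 kinases had unlike distributions. Cdk4 (chr10:127063534-127067920, plus strand) was at 806, 826, 696, 683, 861 and 989 CPM in progenitors and 1102, 1145, 887, 865, 1173 and 1362 CPM in neurogenic cells, higher in the latter in 6 of 6 libraries by 1.27-fold to 1.39-fold. It did not fall away in neurons: ganglion cells were at 829 ± 159 CPM, cones at 713 ± 102 and the horizontal label at 1082 ± 142 (SD, n = 6). Relative to progenitors of the same library, ganglion cells were higher in 4 and lower in 2 (log2 ratio 0.02 ± 0.11), and cones lower in 6 of 6 by a small amount (−0.18 ± 0.02). Cdk6 (chr5:3341485-3531008, plus strand), by contrast, was at 44.9, 39.9, 37.7, 38.5, 42.9 and 45.2 CPM in progenitors, 24.7 ± 3.10 in neurogenic cells and 18.8, 14.2, 2.29, 3.21, 16.7 and 13.6 CPM in ganglion cells. As for Ccnd1, the 2 Bax null libraries held the lowest ganglion cell values. Cdk6 in cones was at 5.41 ± 3.17 CPM and rested on 2 to 11 UMIs per library.

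The promoter sequences are shown for the 2 kinases because their levels diverge in neurons and because, of the motifs searched, only CACGTG (the E-box bound by Myc and other factors) was found in any member's window. The 250 bases before the start in the RefSeq promoter table (build GRCm38.p6) are printed 5′ to 3′ on the gene's strand with each CACGTG in capitals: Cdk4 on the plus strand at chr10:127063285-127063534, and Cdk6 on the plus strand at chr5:3343643-3343892.
Cdk4: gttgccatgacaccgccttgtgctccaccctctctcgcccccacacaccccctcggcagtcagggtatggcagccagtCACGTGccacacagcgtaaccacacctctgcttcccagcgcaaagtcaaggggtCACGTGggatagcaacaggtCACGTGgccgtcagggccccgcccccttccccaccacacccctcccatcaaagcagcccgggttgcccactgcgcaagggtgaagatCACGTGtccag
Cdk6: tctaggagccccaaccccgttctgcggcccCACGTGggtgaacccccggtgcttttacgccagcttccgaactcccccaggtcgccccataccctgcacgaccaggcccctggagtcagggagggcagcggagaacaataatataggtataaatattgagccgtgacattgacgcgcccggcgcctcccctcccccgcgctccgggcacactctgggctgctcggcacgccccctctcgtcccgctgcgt
The Cdk4 window holds 4 copies of CACGTG and the Cdk6 window holds 1. Among 32851 RefSeq promoter windows of 300 bases, 6.02% hold CACGTG at least once and 0.0213% hold it 4 times or more. The E2F-type letters TTTCGCGC, TTTGGCGC, TTTCCCGC or TTTGCCGC (1.86% of promoters), the E-box CAGCTG (13.0%) and TTTGAA (16.0%), all searched on both strands and none contained in another, had no match in the windows of the 7 members found by symbol. Ccnd1, Ccnd2 and Cdkn1c were without an entry. These matches are descriptions of the letters and not of binding.

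Among the Cip/Kip inhibitors, Cdkn1b (chr6:134920401-134925513, plus strand) was at 29.9, 34.3, 17.4, 18.9, 28.8 and 35.6 CPM in progenitors and 43.9, 44.8, 22.4, 22.6, 39.2 and 49.6 in neurogenic cells. It was higher in neurogenic cells in 6 of 6 libraries (log2 ratio 0.40 ± 0.10), and the Bax null libraries were lowest in both types. Cones were above progenitors in 6 of 6 (0.48 ± 0.17), and cones and neurogenic cells did not differ beyond their spread.

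Cdkn1c (chr7:143458339-143461050, minus strand) was lower, not higher, in neurogenic cells than in progenitors when all progenitors were summed. It was at 225, 167, 197, 191, 248 and 227 CPM in progenitors and 153, 115, 133, 133, 181 and 164 CPM in neurogenic cells, a log2 ratio of −0.51 ± 0.04 with 6 of 6 libraries lower. A small set of progenitor clusters with high Ccnd2, described below, held Cdkn1c at 639 to 995 CPM. Without those clusters progenitors were at 159, 128, 161, 158, 170 and 162 CPM. Neurogenic cells were above these values in both Bax null Atoh7 null libraries and below them in the others. The lower neurogenic level in every library therefore holds only with those clusters included. All 3 neuron types were above neurogenic cells in 6 of 6 libraries. Ganglion cells were at 375, 273, 204, 206, 352 and 402 CPM, cones at 437, 396, 221, 241, 487 and 496, and the horizontal label at 892, 901, 660.3, 785, 913 and 984. The horizontal label thus held the highest level, 4.93-fold to 7.79-fold above neurogenic cells of the same library, and cones were above ganglion cells in 6 of 6 libraries by a smaller amount (log2 ratio 0.31 ± 0.16).

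The Ink4 inhibitors differed in neurons: Cdkn2c was highest in neurogenic cells, and the mean of Cdkn2d was highest in ganglion cells (99.5 ± 19.8 CPM, against 85.3 ± 12.4 in neurogenic cells, SD, n = 6). Cdkn2c (chr4:109660876-109667189, minus strand) was at 18.0, 22.9, 11.7, 9.88, 17.7 and 24.9 CPM in progenitors and 32.9, 40.9, 27.3, 20.5, 36.1 and 44.8 CPM in neurogenic cells (log2 ratio 0.93 ± 0.13, 6 of 6 higher). In ganglion cells it was at 0.733 to 4.83 CPM, from 6 to 11 UMIs per library, and in cones from 0 to 9 UMIs. Cdkn2d (chr9:21288410-21291407, minus strand) was at 50.7, 55.4, 48.5, 48.2, 66.0 and 66.1 CPM in progenitors and 85.8, 83.4, 73.8, 70.9, 104 and 94.2 CPM in neurogenic cells (0.60 ± 0.08, 6 of 6 higher). In ganglion cells it was at 83.6, 75.6, 116, 127, 103 and 91.4 CPM, and here the Bax null libraries were the highest. Ganglion cells and neurogenic cells did not differ beyond the spread (0.21 ± 0.42, higher in 2 libraries and lower in 4), and cones (58.2 ± 5.43 CPM, SD, n = 6) were close to progenitors.

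**Figure D1:**
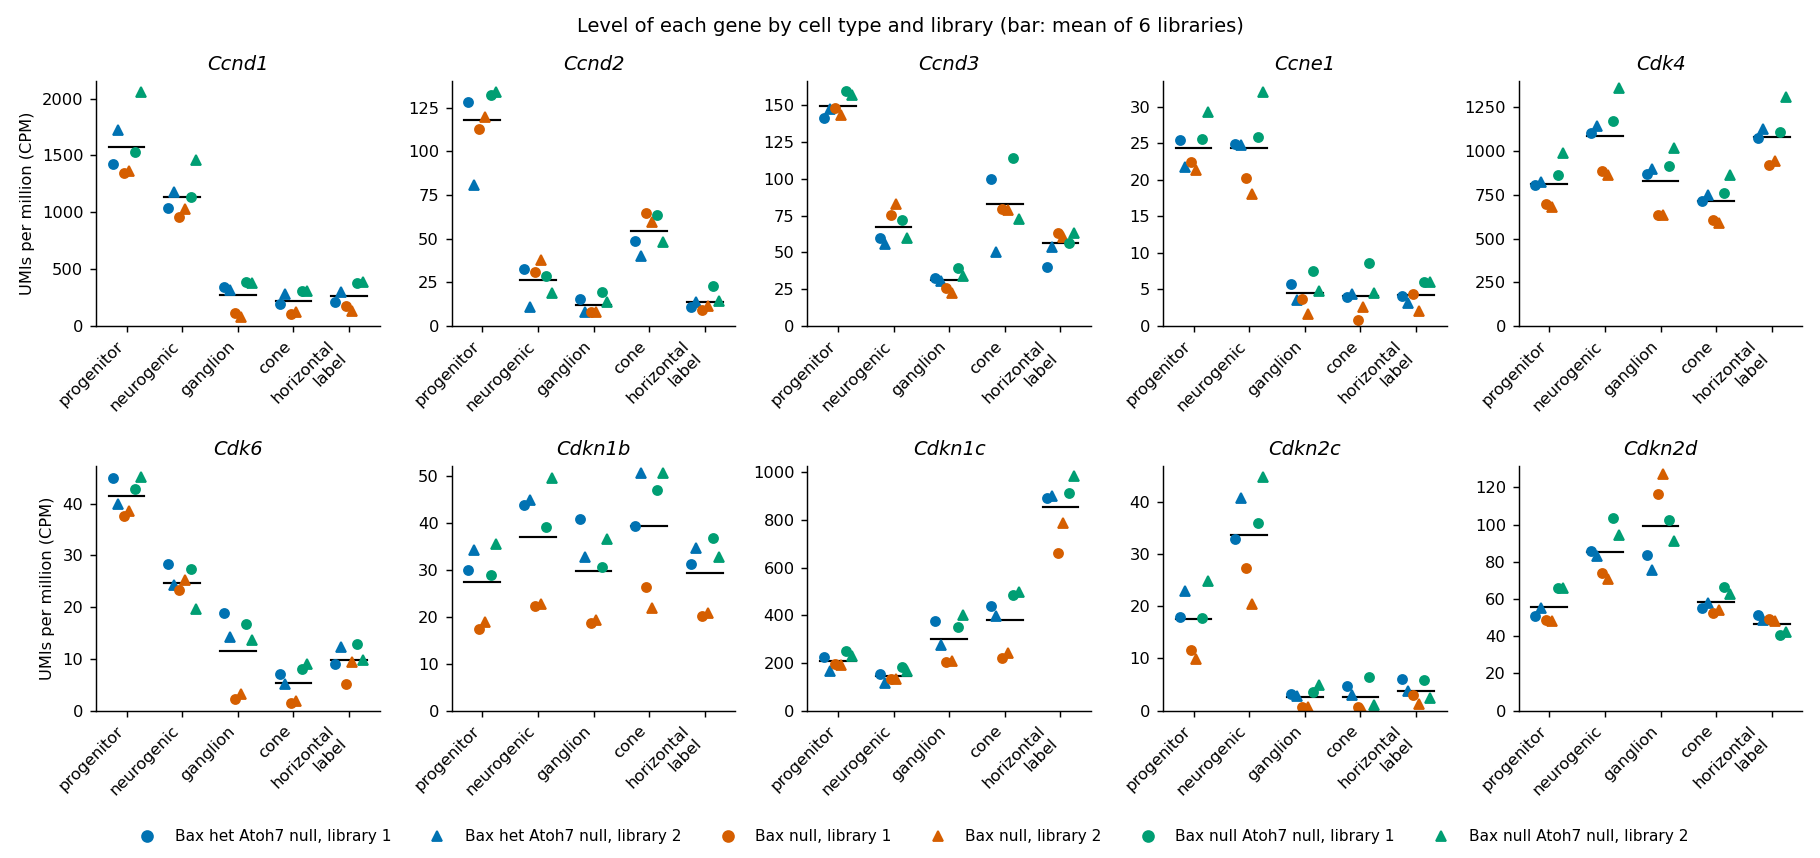
Level of each of the 10 genes in the 5 cell types, in CPM of the type's summed UMIs; each point is 1 library, coloured by group, and the bar is the mean of 6 libraries. Cdk4 stays near its progenitor level in neurons, and Cdkn1c is highest in the horizontal label. Cdkn1c is lower in neurogenic cells than in all progenitors summed. Ccnd1 and Cdk6 in retinal ganglion cells are lowest in the 2 Bax null libraries.

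Over the 30 sums (6 libraries by 5 types), the genes whose log2 CPM, centred within library, went most closely with each member were named; the sums share libraries and depth, so the values are descriptions. Ccnd1 went with Myb (Pearson r 0.985), Birc5 and Psrc1, Ccne1 with the replication genes Dtl, Gmnn and Mcm3, and Cdkn2c with Tpx2 (0.978), Top2a and H1fx, genes of mitosis and chromatin. Ccnd2 went with Apoe (0.968), Hadh and Peg3, and Cdk6 with Kdr (0.952), Nr2f1 and Ccnd1. Cdkn2d instead went with Acot7 (0.921), Olfm1 and Tceb2, and Cdkn1c with Camkk1 (0.942), Tsc22d1 and Stbd1. Ccnd3 went with the ribosomal protein genes Rpl13a (0.956), Rps14 and Rps27, Cdk4 with Smarcc1 (0.935), Zbtb16 and H2afy, and Cdkn1b with Abcf1 (0.889), Rab3ip and Timm50. Among the members themselves Ccnd1 and Ccne1 were closest (0.97), and Ccne1 and Cdkn1c were the most opposed (−0.71).

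The summed level of 31 other G1/S genes (cyclins, Rb family, E2F factors, Cdc25 phosphatases and others) was 1478 to 2490.1 CPM in progenitors, 2018 to 3194 in neurogenic cells and 535 to 1053 in ganglion cells. The 8 antiproliferative genes of the Btg, Tob and Gadd45 families summed to 239 to 395 CPM in progenitors and 1476 to 3076 in neurogenic cells. The neurogenic state therefore held high levels of both lists. Within the second list, Btg2 was at 61.4 to 117 CPM in progenitors and 265 to 919.7 in neurogenic cells, and Gadd45g at 19.7 to 42.3 and 158 to 350.0 CPM.

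To set the members beside cycle transcripts within a type, each cell was thinned to 1000 UMIs, which left out 0% to 10.7% of a library's cells. Cells with at least 2 UMIs from a list of G2/M genes were marked G2/M. Others with at least 2 from a list of S-phase genes were marked S, and cells with none from either were unmarked. The G2/M mark took in 49.9% to 65.2% of progenitors and 57.4% to 78.1% of neurogenic cells. It therefore names cells with these transcripts and does not measure the share of cells in G2 or mitosis. S-marked cells are those that did not already carry the G2/M mark. In neurogenic cells Ccnd1 was highest in S-marked cells, at 2179, 2392, 2000, 1654, 2236 and 3169 CPM, against 606, 627, 496, 429.8, 737.5 and 649 CPM in unmarked cells. The log2 ratio was 1.94 ± 0.22, higher in 6 of 6 libraries, and G2/M-marked cells lay between, at 937, 1161, 879, 986, 995 and 1266 CPM. In progenitors the same ratio was 0.40 ± 0.17 and at most 0.67, below the lowest neurogenic value of 1.60.

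Both Ink4 inhibitors were highest in G2/M-marked cells. In neurogenic cells Cdkn2c was at 48.0, 69.8, 40.9, 29.0, 48.2 and 66.1 CPM in G2/M-marked cells against 0 to 6.25 CPM (0 to 2 UMIs per library) in unmarked cells, too few for a ratio. Cdkn2d was at 108, 117, 95.8, 92.5, 140 and 134 CPM against 12.7 to 34.7 CPM from 3 to 10 UMIs (log2 ratio 2.32 ± 0.61, 6 of 6 higher), and in progenitors the ratio was 1.70 ± 0.54. Neurogenic cells in which no S or G2/M transcript was counted were thus also low in both Ink4 inhibitors. Cdkn1c had the opposite order, with 78.7 to 120.4 CPM in G2/M-marked and 203 to 382 CPM in unmarked neurogenic cells (−1.30 ± 0.34, 0 of 6 higher), and −1.09 ± 0.21 in progenitors. Ccnd2 followed Cdkn1c in progenitors, at 36.5 to 75.8 CPM in G2/M-marked and 111 to 230 CPM in unmarked cells (−1.56 ± 0.16). Cdk4 in neurogenic cells differed little between the 2 states (−0.11 ± 0.09).

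**Figure D2:**
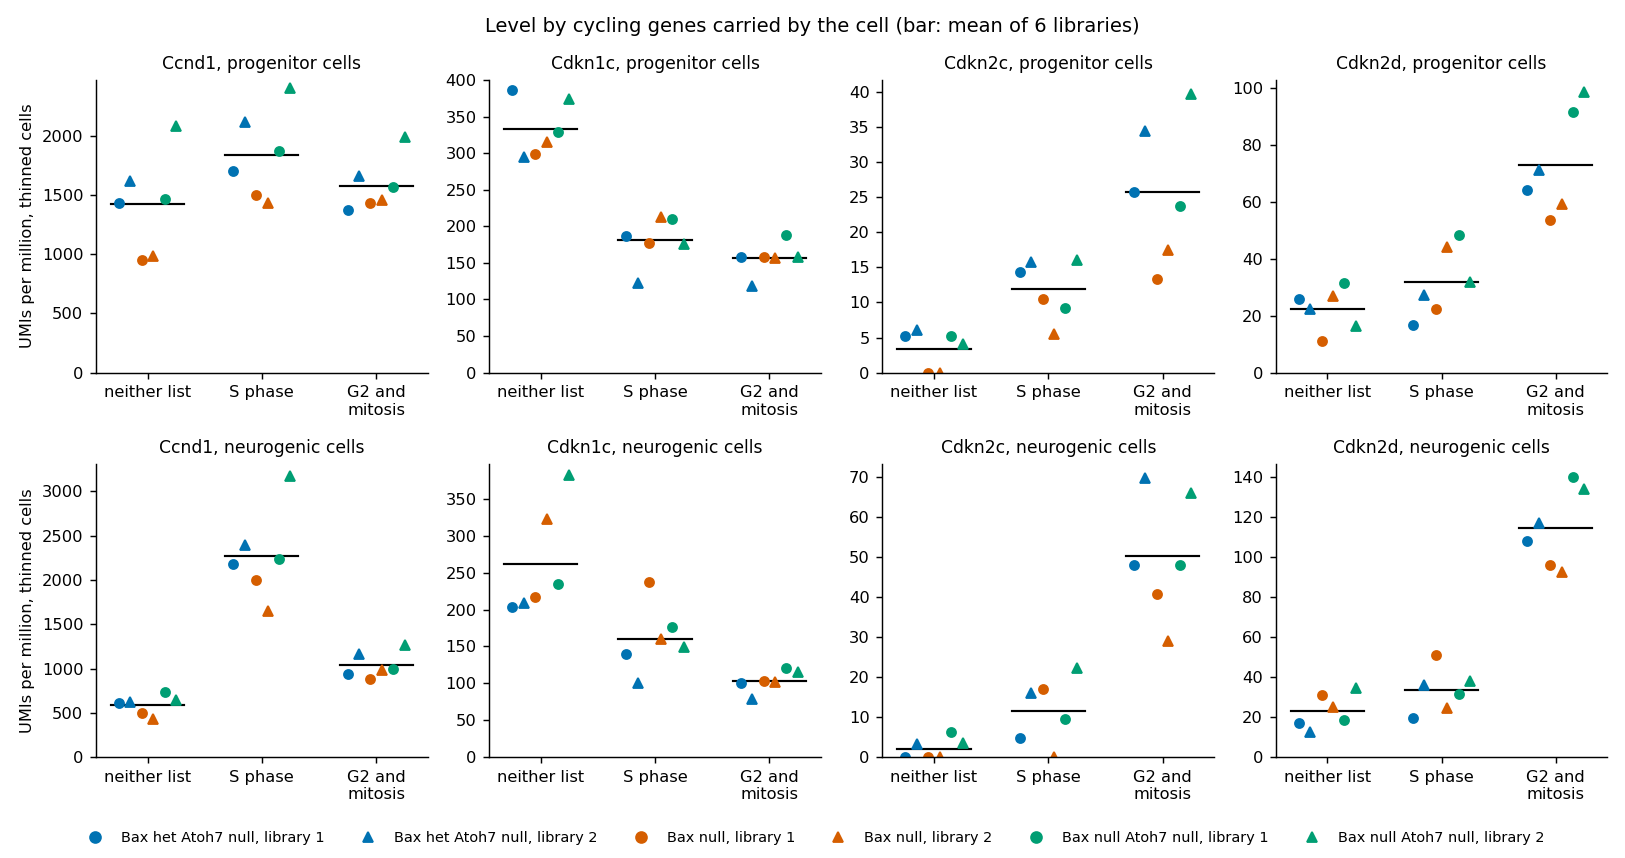
Ccnd1, Cdkn1c, Cdkn2c and Cdkn2d in progenitor and neurogenic cells, split into cells with no UMI of either list, cells marked by S-phase genes and cells marked by G2/M genes after thinning to 1000 UMIs; each point is 1 library, in CPM. Cdkn2c and Cdkn2d sit highest in G2/M-marked cells in all 6 libraries, and Cdkn1c highest in cells with no UMI of either list in 6 libraries in progenitors and 5 of 6 in neurogenic cells.

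The same orders were seen across the authors' clusters, of which 25 in neurogenic cells and 74 in progenitors were large enough to describe. Across the 25 neurogenic clusters, Spearman's rho with the summed G2/M level was 0.88 for Cdkn2c, 0.85 for Cdkn2d and −0.68 for Cdkn1c. Ccne1 went with the S-phase sum (0.86) and Ccnd3 with the progenitor marker sum (0.92). Across the 74 progenitor clusters rho was 0.81 for Cdkn2d and 0.72 for Cdkn2c with G2/M, and 0.78 for Ccne1 with S phase. Clusters were built on expression and share libraries, so no test is attached.

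Ccnd2 in progenitors was concentrated in a few clusters. Its level ran from 8.96 to 922 CPM over the 74 clusters with a median of 45.6, and 7 clusters were at or above 500 CPM (the lowest of them at 559, the highest below the line at 439). The line was drawn after the values were seen. These clusters held 2298 cells, 3.52% to 6.88% of a library's progenitors, and Ccnd2 in them was at 837, 595, 551, 616, 720 and 893 CPM against 65.2, 49.2, 77.2, 85.8, 71.0 and 64.1 CPM in the remaining progenitors. Cdkn1c was high in the same cells, at 967, 803, 639, 666, 995 and 938 CPM against 159, 128, 161, 158, 170 and 162 CPM (log2 ratio 2.39 ± 0.29, 6 of 6 higher). Ccnd1 was low there, at 851, 897, 530, 491, 863 and 1140 CPM against 1479, 1776, 1408, 1425, 1600 and 2140 CPM (−1.09 ± 0.31, 0 of 6 higher). Cdkn2c (−1.73 ± 0.57), Cdk6 (−0.51 ± 0.34) and Cdkn2d (−0.46 ± 0.24) were also lower in 6 of 6 libraries, and Ccne1 was higher in 6 of 6 (0.45 ± 0.22). The genes that led these clusters by fold were Msx1 (52.1 against 0.439 CPM), Rab38, Trpm1, Dazl and Igfbp5, Ccnd2 itself ranked 10 and Cdkn1c 23, and the sum of the progenitor markers was 3678 to 5028 CPM against 6539 to 8818 CPM. Their S-phase genes summed to 703 to 1450 CPM against 1039.6 to 1850 CPM in the remaining progenitors, and their G2/M genes to 1547 to 2070.2 against 3034 to 4328 CPM. The pigment epithelium markers summed to 12.9 to 57.6 against 2.41 to 7.90 CPM, higher in 6 of 6 libraries. The part of these lists in the differences was not tested, and no cell type name is given to the clusters.

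**Figure D3:**
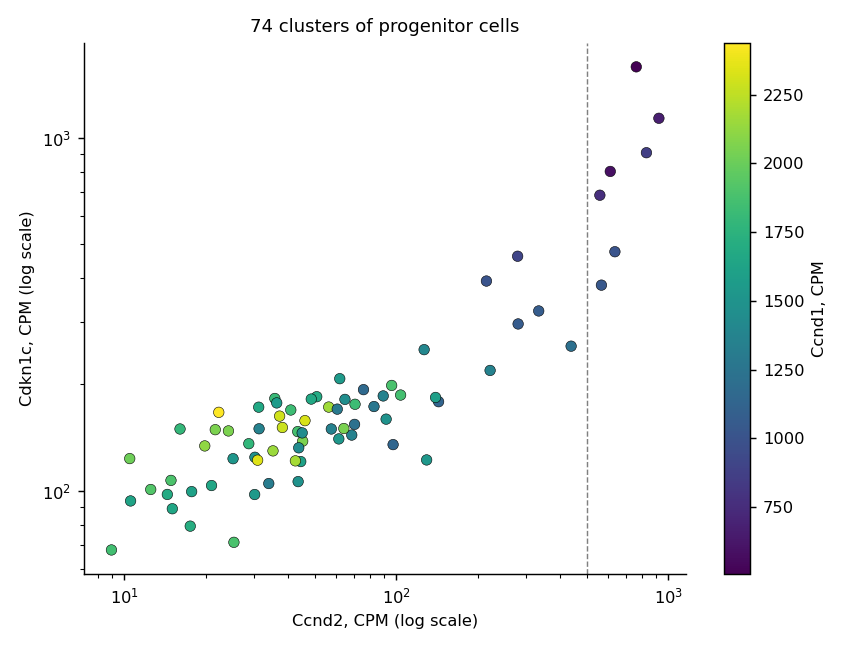
Ccnd2 against Cdkn1c in each of the authors' progenitor clusters, in CPM on log axes, with Ccnd1 as colour and a dashed line at 500 CPM of Ccnd2. The 7 clusters beyond the line combine high Ccnd2 and Cdkn1c with low Ccnd1.

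Genotype groups were compared within a type with edgeR's quasi-likelihood test on summed UMIs with Benjamini-Hochberg adjustment over all genes tested; a gene was called at an adjusted p below 0.05. All 3 contrasts share libraries, so each gives its own values. With 2 libraries a group, edgeR takes a gene's spread partly from the other genes tested, so small p-values do not rest on that gene's libraries alone. SE is the absolute log2 fold change divided by the square root of the test's F. The test scales by TMM, which assumes that most genes do not change, and the TMM factors were 0.76 to 0.79 in the Bax null libraries and 1.08 to 1.24 in the others, over the 4 types tested. Scaling to total counts, an alternative added after the data were seen, moved the median of all genes by 0.45 to 0.63 log2 in the contrasts with Bax null and by 0.08 to 0.12 between the 2 Atoh7 null groups. The CPM values above are on the total-count scale and the fold changes below on the TMM scale.

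In retinal ganglion cells, Ccnd1 and Cdk6 were higher and Cdkn2d lower in both Atoh7 null groups than in Bax null. Of the 9 members tested there, 3 were called for Bax null Atoh7 null minus Bax null, beside 52.7% of all genes, and 4 for Bax het Atoh7 null minus Bax null, beside 50% of all genes. The members' share was below the background. Ccnd1, at 387 and 378 against 110.4 and 81.6 CPM, was 2.62-fold higher in Bax null Atoh7 null (log2 1.39, SE 0.12, edgeR adjusted p = 1.4e-06) and, at 339.6 and 321 CPM, 2.45-fold higher in Bax het Atoh7 null (1.29, SE 0.12, edgeR adjusted p = 3.4e-06). Cdk6 was 3.61-fold higher (1.85, SE 0.27, edgeR adjusted p = 1.1e-04) and 4.14-fold higher (2.05, SE 0.27, edgeR adjusted p = 5.6e-05), on 24 to 42 UMIs per library. Cdkn2d fell 1.91-fold (−0.93, SE 0.11, edgeR adjusted p = 1.3e-05) and 2.16-fold (−1.11, SE 0.11, edgeR adjusted p = 5.0e-06). Each call for Ccnd1, Cdk6 and Cdkn2d held with every library left out in turn. With the library labelled Bax null Atoh7 null 1 left out, Ccnd1 was 1.34, Cdk6 1.66 and Cdkn2d −1.05 in the first contrast. Scaled to total counts they were 2.0, 2.46 and −0.33, and with the cells of highest doublet score left out Cdk6 was 2.63. Cdkn1b was higher in Bax het Atoh7 null (0.44, edgeR adjusted p = 0.0216), a call lost without Bax het Atoh7 null 1 (0.30), Bax null 1 (0.40) or Bax null 2 (0.48). Ccnd2, Ccnd3, Ccne1, Cdk4 and Cdkn1c were not called in either contrast, and Cdkn2c was too low to be tested.

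Expressed as a percentage of the progenitor level in the same library, which needs no scaling between libraries, Ccnd1 in ganglion cells was at 23.8, 18.6, 8.22, 5.98, 25.3 and 18.4%. Cdk6 was at 41.9, 35.6, 6.08, 8.33, 39.0 and 30.1%, and Cdkn1c at 167, 163, 103, 108, 142 and 177%. For these genes every Atoh7 null library was above both Bax null libraries, and for Cdkn2d every one was below, at 165, 136, 240, 265, 155 and 138%. The share of all genes separated in this way was not counted, so the separation is not shown to be particular to these members.

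The test of that within-library difference asks whether the log2 ratio of a type to progenitors differs between groups, with the library as a block. Its p-values rest on the spread left after that block, again taken partly from all genes. For ganglion cells, with Bax null Atoh7 null set against Bax null, 8 of 10 members were called, 7 higher and 1 lower, beside 15.7% of all genes (8.15% higher, 7.53% lower). The low-count filter of this test was set over progenitor and ganglion cell sums together. Cdkn2c, too low to be tested within ganglion cells (mean 2.65 CPM there), entered because progenitor sums were included, and it is among the 8 called. The difference was 1.67 for Ccnd1 (SE 0.095, edgeR adjusted p = 5.0e-18), 2.31 for Cdk6 (SE 0.27, edgeR adjusted p = 8.6e-09), 0.63 for Cdkn1c (SE 0.08, edgeR adjusted p = 4.8e-08) and −0.73 for Cdkn2d (SE 0.09, edgeR adjusted p = 2.7e-08). With the library labelled Bax null Atoh7 null 1 left out these were 1.45, 2.13, 0.82 and −0.79. Cdk4, the kinase that D cyclins bind, differed by 0.24 (0.24 without that library) and was called with every library left out in turn. Ccnd2 (0.92), Ccnd3 (0.52) and Cdkn2c (1.55) were called with all libraries, but with the library labelled Bax null Atoh7 null 1 left out none of them was (0.64, 0.43 and 1.55). Ccnd3 also lost its call without Bax null 2 (0.44), and Cdkn2c without any 1 of the 4 libraries compared (1.45 to 1.64). With Bax het Atoh7 null set against Bax null 7 members were called, 6 higher and 1 lower, beside 15.2% of all genes (7.42% higher, 7.81% lower): Ccnd1 1.61, Cdk6 2.45, Cdkn1c 0.69 and Cdkn2d −0.72 again, with Ccnd2 0.73, Ccnd3 0.44 and Cdk4 0.29. There the calls for Ccnd2 (0.54) and Ccnd3 (0.37) were lost without Bax het Atoh7 null 1, and also without 3 and 2 of the other libraries.

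**Figure D4:**
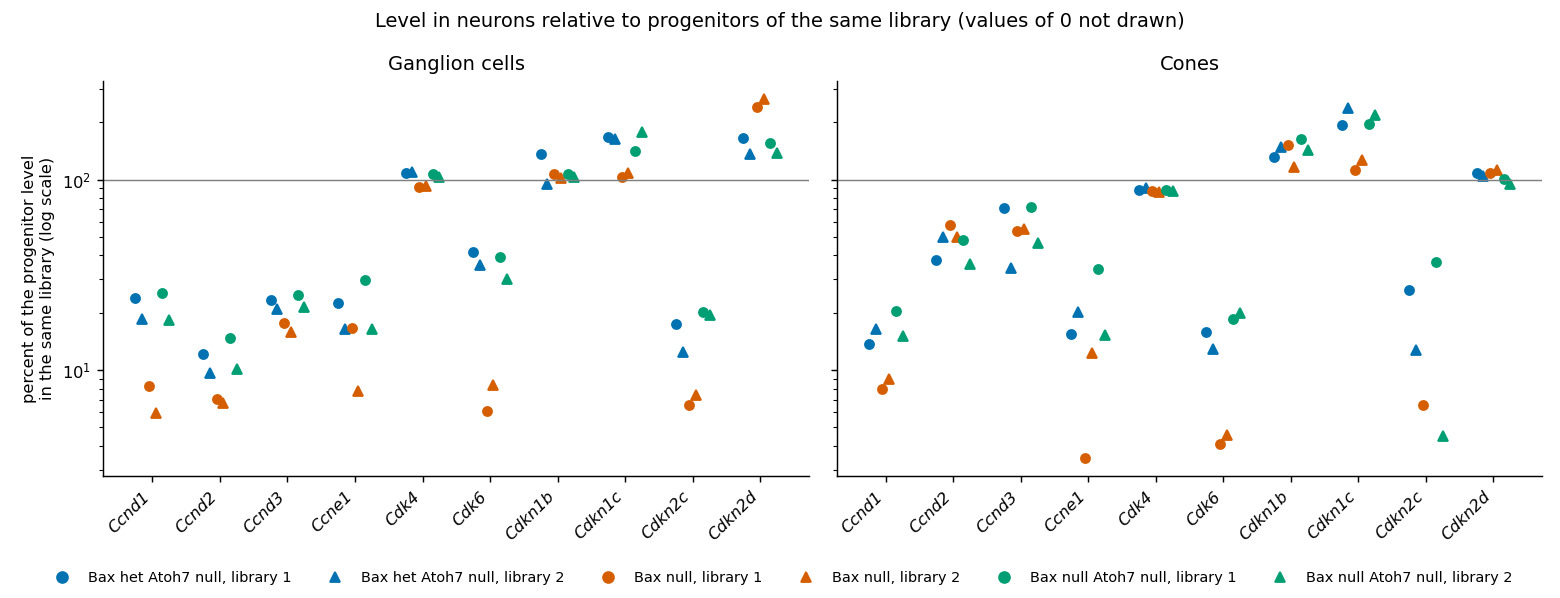
Level of members in retinal ganglion cells and cones as a percentage of the progenitor level in the same library. Each point is 1 library, coloured by group, and values of 0 are not drawn. In ganglion cells Ccnd1, Cdk6 and Cdkn1c are lower, and Cdkn2d higher, in both Bax null libraries than in the other 4.

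Marker sums also differed between the groups in ganglion cells. The progenitor markers (10 of 10 genes detected) summed to 2228 to 2699 CPM in the Atoh7 null libraries and 1801 to 1916 in Bax null, the neurogenic markers to 1451 to 1633 and 641 to 663, the horizontal markers to 1275 to 1535 and 523 to 531, and the ganglion cell markers to 9136 to 11639.6 and 14255 to 14856. Of the 10 progenitor markers, edgeR called 7 higher and 2 lower for Bax null Atoh7 null minus Bax null. Of all genes 26.2% were higher and 26.5% lower there. For Bax het Atoh7 null minus Bax null 6 markers were higher and 3 lower, beside 25% and 25% of all genes. The marker counts were not repeated with the library labelled Bax null Atoh7 null 1 left out. As a percentage of the progenitor level, the progenitor genes Fgf15 and Sfrp2 were at 9.47 to 16.0 and 9.32 to 14.3% in the Atoh7 null libraries, and at 4.25 and 7.04, and 5.05 and 7.66%, in Bax null. Not every progenitor gene followed that order: Hes5, a Notch target, was at 25.6 to 40.1% in the Atoh7 null libraries and 53.8 and 51.2% in Bax null, and Pax6, which ganglion cells also express, overlapped at 159 to 182% and 172 and 171%. Fabp7, a fatty acid binding protein gene, was at 1519 to 1809% against 246 and 141%. The part of these markers, and of depth, in the results for Ccnd1 and Cdk6 was not tested. Within the 5 ganglion cell clusters that held at least 20 cells of every library (25.5% to 50.7% of a library's ganglion cells), both Bax null Atoh7 null libraries were above both Bax null libraries in 5 of 5 clusters for Ccnd1, Cdk6, Cdkn1c and Cdk4 on the total-count scale, as were 21.1% of the 5706 genes compared. The median log2 difference was 2.55 for Ccnd1 and 2.15 for Cdk6. Cdkn2d was lower in 1 of the 5 clusters (4.47% of genes were below in every cluster), with a median of 0.08 against −0.33 for the whole type on the same scale. For Bax het Atoh7 null minus Bax null the counts were 5 clusters for Ccnd1, 3 for Cdk6, 4 for Cdkn1c and 4 for Cdk4, and Cdkn2d was below in 3. In that contrast 17.6% of genes were above and 4.03% below in every cluster. The shares of genes in both contrasts compare only with a count of 5 of 5, and none was made for fewer clusters. They cover genes of at least 20 CPM in ganglion cells, a level that Cdk6 (mean 11.5 CPM) did not reach.

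The other G1/S genes gave context in ganglion cells. With Bax null Atoh7 null set against Bax null, 12 of 25 tested were higher and 2 lower, beside 26.2% higher and 26.5% lower of all genes, with a median log2 of 0.62 against 0.02 over all genes. The 14 called were close to the background share of 52.7% called in either direction. With the library labelled Bax null Atoh7 null 1 left out, the median of these genes was 0.31, against 0.003 over all genes. Ccnb1, a mitotic cyclin (2.33), the inhibitor Cdkn1a (1.90) and the phosphatase gene Cdc25c (1.58) rose, and E2f3 (−0.75) and Cks1b (−0.55) fell; with that library left out Cdc25c (1.09) and E2f3 (−0.70) lost the call. Of the antiproliferative genes 5 of 7 rose, with Gadd45g at 2.22, Btg3 at 2.0 and Tob1 at 1.84, and Btg1 fell (−0.77). With that library left out the median of this list was 0.78, and Btg3 (1.21) lost the call. Of the S-phase genes 8 of 11 were higher and 1 lower (median 0.88), and of the G2/M genes 8 of 10 were higher and 1 lower (median 0.97). With that library left out the medians of these lists were 0.85 and 0.57. The Bax het Atoh7 null contrast gave 12 higher and 2 lower among the other G1/S genes, beside 25% of all genes higher and 25% lower.

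In cones, 3 of 8 members tested were called in each contrast with Bax null, beside 28.1% of all genes for Bax null Atoh7 null and 27.5% for Bax het Atoh7 null. Ccnd1, at 195, 285, 107, 123, 311 and 309 CPM, was higher in Bax null Atoh7 null (log2 0.89, SE 0.16, edgeR adjusted p = 3.6e-04) and in Bax het Atoh7 null (0.62, edgeR adjusted p = 0.0079); the second call was lost without Bax het Atoh7 null 2 (0.30) or Bax null 1 (0.52). The first was 0.55 with shared barcodes left out, still called. With the library labelled Bax null Atoh7 null 1 left out, Ccnd1 was 0.84, Ccnd2 −0.96 and Cdkn1c 0.51 in the first contrast, all called. Cdkn1c was higher by 0.54 (edgeR adjusted p = 0.0034) and 0.40 (edgeR adjusted p = 0.0253), and Ccnd2 lower by log2 −0.67 (edgeR adjusted p = 0.0128) and −0.94 (edgeR adjusted p = 0.0013). The Ccnd2 call in Bax null Atoh7 null was lost without Bax null 1 (−0.61) or Bax null Atoh7 null 2 (−0.48), and neither Ccnd2 call was kept on the total-count scale (−0.12 and −0.48). The first call for Cdkn1c was lost without Bax null 1 (0.47), and the second without any 1 of the 4 libraries compared (0.33 to 0.46). As a share of the progenitor level, Ccnd1 in cones was at 13.7, 16.5, 7.94, 8.98, 20.3 and 15.0% and Cdkn1c at 194, 237, 112, 126, 196 and 219%, again with the Bax null libraries lowest. The within-library difference to progenitors was 1.23 for Ccnd1 (edgeR adjusted p = 2.7e-18) and 0.95 for Cdkn1c (edgeR adjusted p = 2.0e-14) when Bax null Atoh7 null was compared, and 1.0 for each gene when Bax het Atoh7 null was compared; these 4 values were called with every library left out in turn, and the first 2 were 1.01 and 1.06 with the library labelled Bax null Atoh7 null 1 left out. The within-library test took in 10 members, against 8 within cones, because its low-count filter included progenitor sums. With Cdk6 (2.30, lost without any 1 of the 4 libraries compared and 2.37 without that library), 3 members were called in the first contrast beside 4.91% of all genes, and 2 in the second beside 5.3%. Ccnd1 and Cdkn1c, a cyclin and an inhibitor, were therefore both higher relative to progenitors in cones and in ganglion cells of the Atoh7 null libraries.

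In neurogenic cells Ccnd3 was lower in both contrasts with Bax null. It was at 59.8, 55.5, 75.3, 83.0, 72 and 59.8 CPM, and fell 1.80-fold in Bax null Atoh7 null (log2 −0.85, SE 0.12, edgeR adjusted p = 1.4e-04) and by log2 −0.97 in Bax het Atoh7 null (SE 0.12, edgeR adjusted p = 6.5e-05). Scaled to total counts these were −0.26, no longer called, and −0.46. Within clusters the direction differed from these total-count values. There were 17 neurogenic clusters that held at least 20 cells of every library (70.4% to 85.1% of a library's neurogenic cells). On the total-count scale, both Bax null Atoh7 null libraries were above both Bax null libraries in 8 clusters for Ccnd3 and below in 2, with a median log2 difference of 0.42. For Bax het Atoh7 null minus Bax null Ccnd3 was above in 4 and below in 3 (median 0.14). On that scale the median of all genes over the whole type was itself 0.59 and 0.51 log2 higher than in Bax null in these contrasts. The Ccnd3 medians lie below that shift, so their sign is not a reversal of the TMM folds. Ccnd1 in these clusters was above in 14 for the first contrast (median 1.11) and in 15 for the second (0.67), and below in 0. Of the 5649 genes compared, 9.72% and 7.56% were above in all 17 clusters, a stricter count that Ccnd1 did not reach. The share of genes above in 14 or 15 clusters was not counted. In all, 4 members were called in Bax null Atoh7 null, beside 47.3% of all genes, and 6 in Bax het Atoh7 null, beside 47.1%. Cdkn1b was higher (0.38 and 0.47) and Ccnd2 lower (−1.11 and −1.21) in both, while Cdk6 (−0.61) was called in Bax null Atoh7 null only and Ccnd1 (−0.35), Cdkn1c (−0.51) and Cdkn2d (−0.29) in Bax het Atoh7 null only; the difference between those contrasts was not called for any member. In Bax null Atoh7 null, Ccnd2 and Cdk6 lost the call without Bax null 2 (−0.95 and −0.55) or Bax null Atoh7 null 2 (−0.83 and −0.38), and Cdkn1b without those libraries (0.39 and 0.25) or Bax null 1 (0.36). With the library labelled Bax null Atoh7 null 1 left out, Cdk6 was −0.96, Ccnd2 −1.54, Ccnd3 −1.06 and Cdkn1b 0.48, all called. In Bax het Atoh7 null, Ccnd1 and Cdkn2d lost the call without any 1 of the 4 libraries compared, Cdkn1c without Bax het Atoh7 null 2 (−0.32), and Ccnd2 without Bax het Atoh7 null 2 (−0.60) or Bax null 2 (−1.05). Ccnd2 was −2.19 without Bax het Atoh7 null 1. Scaled to total counts Ccnd1 (0.16), Cdkn1c (0.01) and Cdkn2d (0.23) turned to the other direction without a call. Relative to progenitors, Ccnd2 (−0.64), Ccnd3 (−0.32) and Cdk4 (0.17) were called in Bax null Atoh7 null beside 7.46% of all genes, and the same 3 genes in Bax het Atoh7 null (−0.51, −0.42 and 0.15) beside 8.35%; each lost its call in both contrasts without Bax null 2 and 1 or more of the other libraries, and the Ccnd2 difference was −1.13 without Bax het Atoh7 null 1. All 3 stayed called with the library labelled Bax null Atoh7 null 1 left out (Ccnd2 −1.02, Ccnd3 −0.45 and Cdk4 0.19). The share of neurogenic cells marked by G2/M genes was 62.1, 61.1, 78.1, 76.7, 59.3 and 57.4% after thinning (74.7, 72.1, 93.2, 95.7, 70.5 and 63.1% before), highest in Bax null, and its part in these differences was not tested. The other G1/S genes gave 7 higher and 8 lower of 28 tested in Bax null Atoh7 null, with Fbxw7 at 0.95 and Myc at −1.59, and the antiproliferative genes 4 higher and 1 lower of 8, with Btg3 at 1.75, Tob1 at 1.10, Btg2 at 0.97 and Btg1 at −1.19. With the library labelled Bax null Atoh7 null 1 left out, the medians of these lists were 0.09 and 0.55, against −0.03 over all genes. The named genes kept their calls.

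In progenitors 3 members were called in Bax null Atoh7 null against Bax null, beside 53.9% of all genes, and all 3 were lower (27.1% of all genes were lower and 26.8% higher): Ccnd3 (−0.51, SE 0.08, edgeR adjusted p = 8.4e-04), Cdk6 (−0.43, SE 0.08, edgeR adjusted p = 0.0021) and Ccne1 (−0.31, SE 0.09, edgeR adjusted p = 0.019). Scaled to total counts, all 3 turned to the other direction (0.12, 0.21 and 0.32), so no direction is drawn for these genes in progenitors. In Bax het Atoh7 null 8 members were called beside 53.1% of all genes (26.6% higher, 26.5% lower), with Cdkn1b higher (0.29) and Ccnd2 (−0.69), Ccnd3 (−0.55), Ccne1 (−0.42), Cdk4 (−0.29), Cdk6 (−0.38), Cdkn1c (−0.52) and Cdkn2d (−0.40) lower. Of these Ccne1, Cdk4, Cdk6, Cdkn1c and Cdkn2d also turned under total-count scaling. Ccnd2 was −1.05 without Bax het Atoh7 null 1 and −0.39 without Bax het Atoh7 null 2, both called; Cdk4 lost the call without any 1 of the 4 libraries, Cdkn1b without Bax het Atoh7 null 2 (0.18), Bax null 1 (0.22) or Bax null 2 (0.35), and Cdkn1c without Bax het Atoh7 null 2 (−0.32) or Bax null 1 (−0.51). Ccne1 lost its call in Bax null Atoh7 null without Bax null 1 (−0.29), Bax null 2 (−0.34) or the library labelled Bax null Atoh7 null 1 (−0.27), with which left out Ccnd3 was −0.58 and Cdk6 −0.45. Among the other G1/S genes 12 were higher and 8 lower of 29 in Bax null Atoh7 null. With that library left out the median log2 of this list was 0.15, against −0.01 over all genes.

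Between the 2 Atoh7 null groups, which differ in Bax, edgeR called 0 members in progenitors, neurogenic cells, ganglion cells or cones, where 2.01, 1.77, 2.34 and 1.46% of all genes were called. At an unadjusted p below 0.05 there were 1, 1, 0 and 0 members, and DESeq2 called 0 in each type. The within-library difference gave 0 members in neurogenic cells, ganglion cells and cones (0.0, 0.102 and 0.0152% of all genes called; 0, 0 and 1 at an unadjusted p below 0.05; DESeq2 was not run there). With 2 libraries a group and the doubt on the library labelled Bax null Atoh7 null 1, a count of 0 does not show that levels were alike.

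**Figure D5:**
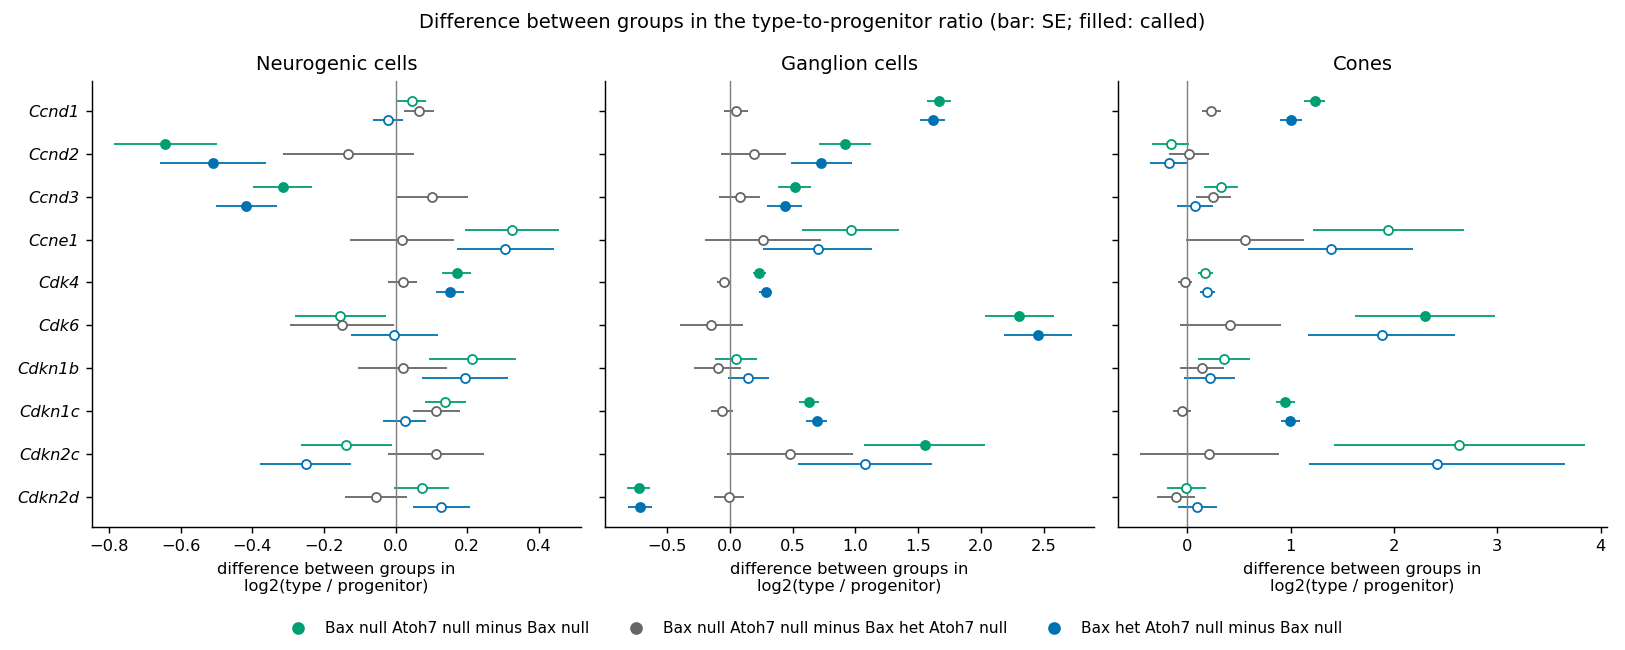
Within-library difference to progenitors (log2) for each member in neurogenic cells, retinal ganglion cells and cones, for the 3 contrasts of genotype groups; filled points were called, and bars are SE. In ganglion cells Ccnd1 and Cdk6 lie above 0 and Cdkn2d below 0 in both contrasts with Bax null, and no member is called between the 2 Atoh7 null groups.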

How the data were processed

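The deposited single-cell matrix holds raw UMI counts per gene and cell, made by the authors with Cell Ranger 1.2.1 on mm10, per the submitters' processing notes; cell filters are not given in the sources used here. The cell type, cluster, library and UMI total of each cell were taken from other columns deposited by the authors. Every matrix sum equalled the authors' total. Cells of 2 further libraries (26078) were not used. Counts were summed per library and type. Group contrasts used edgeR 4.0.16 (glmQLFit and glmQLFTest, TMM, all 6 libraries, no block) in R 4.3.3; within-library differences added the library as a block. The tests were tested on simulated data with 200 genes changed 2-fold in a simulated Bax null Atoh7 null minus Bax null contrast. There 100% were recovered in progenitors, 94.5% in ganglion cells and 68% in cones. For the within-library difference to progenitors 85.5% were recovered in neurogenic cells, 69% in ganglion cells and 43% in cones. Of the simulated calls 3.39% to 8.51% were false. The changed genes had at least 20 CPM, with 1 fixed spread and no overall shift between groups. The rates therefore do not cover members below that level, such as Cdk6, Ccnd2, Ccne1 and Cdkn2c in ganglion cells. Alternatives were RLE size factors, DESeq2 1.42.0, no low-count filter, a replicate block, a fit to just the 4 libraries of a contrast, removal of likely doublets (the 8% of cells with the highest Scrublet scores, 5364), thinning, each library left out and, added after the data were seen, total-count scaling, shared barcodes left out and the lists with the library labelled Bax null Atoh7 null 1 left out.

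The genes and lists were chosen with earlier results of these data known. Named are all 10 genes, per list up to 3 called genes at either end of the fold changes (all list genes called where 5 or fewer were), and per gene the 3 with the highest Pearson r over the 30 sums among 7204 genes of at least 20 CPM in a type; the line at 500 CPM of Ccnd2 and the genes of those clusters were chosen after values were seen. Msx1 and the other leading genes of those clusters had at least 50 CPM. Intervals cover counting error only.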

Additional observations from a re-analysis of the deposited data

Results flagged for a closer look

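The difference between groups in the log2 ratio to progenitors of the same library was called by edgeR (adjusted p below 0.05) for 26 values, each the test of the difference itself. In ganglion cells of Bax null Atoh7 null against Bax null these were Ccnd1 at 1.67, Ccnd2 at 0.92, Ccnd3 at 0.52, Cdk4 at 0.24, Cdk6 at 2.31, Cdkn1c at 0.63, Cdkn2c at 1.55 and Cdkn2d at −0.73. Cdkn2c, too low to be tested within ganglion cells, entered through a filter that included progenitor sums. Against the same Bax null libraries, ganglion cells of Bax het Atoh7 null gave Ccnd1 at 1.61, Ccnd2 at 0.73, Ccnd3 at 0.44, Cdk4 at 0.29, Cdk6 at 2.45, Cdkn1c at 0.69 and Cdkn2d at −0.72.

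In cones, Ccnd1 (1.23), Cdk6 (2.30) and Cdkn1c (0.95) differed in Bax null Atoh7 null, and Ccnd1 (1.0) and Cdkn1c (1.0) in Bax het Atoh7 null. Among neurogenic cells, Ccnd2 (−0.64), Ccnd3 (−0.32) and Cdk4 (0.17) differed in Bax null Atoh7 null, and Ccnd2 (−0.51), Ccnd3 (−0.42) and Cdk4 (0.15) in Bax het Atoh7 null. Depth and group cannot be told apart in any of these contrasts.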

How the results depend on the processing

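Of 60 called values, the call and direction stayed the same in 59 with RLE size factors, 52 with doublets left out, 58 without the low-count filter, 60 with only the 4 libraries compared, 49 with shared barcodes left out and 37 with total-count scaling, where 11 reversed; of the 34 group values, 24 stayed with DESeq2, 30 with thinning and 34 with the block. With 2 libraries a group, leaving 1 out leaves an arm with a lone library, whose spread is assumed to be that of the others; 285 of 360 such values stayed. The cause of a changed value was not tested. Of 40 level ratios (neurogenic cells to progenitors, and each neuron type to neurogenic cells), 12 moved by at least their SD with likely doublets left out. With TMM over the 30 sums 7 moved, with the mean over single cells 5, with shared barcodes left out 1, and with cells under 1000 UMIs left out 0. No ratio with the same direction in every library reversed. Counts of members called under the alternatives below are given without the share of all genes called under the same setting. They describe how far the calls moved and do not set the members against other genes.

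Under total-count scaling, Bax null Atoh7 null minus Bax null in progenitors reversed for Ccnd3 (0.12), Ccne1 (0.32) and Cdk6 (0.21). Bax het Atoh7 null minus Bax null reversed in progenitors for Ccne1 (0.11), Cdk4 (0.24), Cdk6 (0.15), Cdkn1c (0.016) and Cdkn2d (0.13), and in neurogenic cells for Ccnd1 (0.16), Cdkn1c (0.0058) and Cdkn2d (0.23). The counts of members called also moved under total-count scaling, which moved the median of all genes by 0.45 to 0.63 log2 in these contrasts. In Bax null Atoh7 null against Bax null they went from 3 to 6 in progenitors and 4 to 7 in neurogenic cells. In ganglion cells they went from 3 to 9 and in cones from 3 to 5. In Bax het Atoh7 null they went from 8 to 2 in progenitors and 4 to 7 in ganglion cells. In progenitors of Bax null Atoh7 null, 5 members were called with only the 4 libraries compared and 5 with shared barcodes left out, and 5 of Bax het Atoh7 null with shared barcodes left out. DESeq2 called 2 in neurogenic cells of Bax null Atoh7 null and 1 in cones of Bax het Atoh7 null.

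With a replicate block, 5 members were called in progenitors of Bax null Atoh7 null against Bax null, 4 in neurogenic cells, 3 in ganglion cells and 3 in cones; in Bax het Atoh7 null 9, 7, 4 and 4 were called, and 0 between the Atoh7 null groups. The numbers do not pair the libraries: correlations of same-numbered deviations ran from −0.098 to 0.284.

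Leaving out each library in turn gave 2 to 6 and 5 to 10 called members in progenitors (Bax null Atoh7 null and Bax het Atoh7 null against Bax null), 1 to 6 and 2 to 7 in neurogenic cells, 4 to 5 and 3 to 5 in ganglion cells, and 1 to 4 and 1 to 4 in cones. For the within-library difference it gave 0 to 3 and 0 to 3 in neurogenic cells, 5 to 8 and 5 to 7 in ganglion cells, 2 to 3 and 2 to 3 in cones, and 0 to 1 in cones between the Atoh7 null groups. Low counts limit Cdkn2c and Ccne1 in neurons and Cdk6 in cones.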

Other observations

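A few G1/S list genes that are not among the 10 were called between the 2 Atoh7 null groups, unlike the members. In ganglion cells the inhibitor gene Cdkn1a was at 16.7 and 12.8 CPM with Bax heterozygous and 35.4 and 40.9 CPM with Bax null, both on the Atoh7 null background, and at 7.16 and 6.24 CPM in the group labelled Bax null alone; it rose from the first of these to the second (log2 1.28, edgeR adjusted p = 0.0038). Mycn fell (log2 −0.64, edgeR adjusted p = 0.0099), from 135 and 159 CPM to 93.9 and 113 CPM. Both calls held with the library labelled Bax null Atoh7 null 1 left out (1.36 and −0.54). E2f2 was also called, but it rested on 1 UMI in each of the 2 Bax het Atoh7 null libraries, so no fold is given. In neurogenic cells the E cyclin Ccne2 fell (log2 −0.64, edgeR adjusted p = 0.042), from 34.8 and 37.2 CPM to 21.0 and 28.5 CPM. That call was lost with the library labelled Bax null Atoh7 null 1 left out (−0.48, edgeR adjusted p = 0.14).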
